A study of Drosophila melanogaster with 4 samples.

Results

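The genes described here are the subunits of the MCM2-7 replicative helicase and the cyclins A, B and E. These 9 genes, chosen with earlier results of these data known, are Mcm2, Mcm3, dpa, Mcm5, Mcm6, Mcm7, CycA, CycB and CycE. They were found in the count table by the FlyBase identifier that the reference gene table pairs with each symbol. That gave 8 of the 9 among 17628 identifiers listed. The identifier that the reference gives for Mcm3 was not among those listed, so Mcm3 has no value here. The flies were whole adults of the Oregon strain, 5 days old, fed on food containing glucose or galactose. There were 2 libraries of poly-A RNA per diet, and neither the sex of the flies nor separate cultures for the 2 libraries are stated in the labels. The p-values therefore rest on a spread between libraries that may be technical. Whole flies hold all tissues, so fewer cells of a type and less RNA per cell cannot be told apart.

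Before a cell copies its DNA, the origin recognition complex, Cdc6 and Cdt1 load the ring of MCM subunits onto origins, a step called licensing. S-phase kinases later switch that ring on as the motor of the replication fork. Cyclins are the regulatory partners of the cyclin-dependent kinases. Cyclin E drives entry into S phase and the endocycles, in which DNA is copied without division, whereas cyclins A and B act with Cdk1 at mitosis. In adult flies most dividing and endocycling cells lie in the ovary, where nurse cells also make cyclin mRNA for the egg, and fewer lie in the testis and midgut.

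All 8 measured genes had a higher mean on galactose than on glucose, and none passed the test. The mean was 1.37-fold to 1.71-fold higher for the MCM subunits and 1.63-fold to 2-fold higher for the cyclins. The median log2 fold change, galactose over glucose, was 0.64 for the 8 genes, against -0.04 for all 12529 genes tested. All 8 genes passed the filter on low counts. For 7 of the 8, both galactose libraries lay above both glucose libraries, which was the case for 18.8% of all genes tested. CycB was the exception. Since the genes were chosen with earlier results of these data known, their shared direction is a description.

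Among the MCM subunits, levels are given as CPM, the reads of a gene per fixed number of reads in its library, after TMM scaling between libraries. Mcm2 (FBgn0014861; BDGP6.54, chromosome 3R, 8264970 to 8267924) was at 109.5 and 136 CPM in glucose replicates 1 and 2 and at 152 and 184 CPM in galactose replicates 1 and 2. The groups did not overlap, but the nearest libraries of the 2 diets were only 1.12-fold apart. Its log2 fold change was 0.455 ± 0.26 (SE), with a 95% interval from -0.16 to 1.07. The gene dpa (FBgn0015929; 2R, 7496702 to 7500145), which encodes the Mcm4 subunit, was at 142.5 and 133 CPM on glucose and at 178 and 209.6 CPM on galactose. Both galactose values lay above both glucose values, by at least 1.25-fold, and the log2 fold change was 0.49 ± 0.24.

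Mcm5 (FBgn0017577; 3R, 10788524 to 10791150), a subunit at the gate through which the ring opens onto DNA, was at 138 and 147 CPM on glucose and at 187 and 241.5 CPM on galactose. The glucose libraries lay close together and both galactose libraries were at least 1.27-fold above them. The log2 fold change was 0.59 ± 0.25. Mcm6 (FBgn0025815; X, 6674387 to 6677176) was at 98.3 and 116 CPM on glucose and at 130.0 and 164.5 CPM on galactose, a log2 fold change of 0.46 ± 0.26. Its libraries also separated by diet, with a gap of 1.12-fold.

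Mcm7 (FBgn0020633; 3L, 8891596 to 8894310) had the lowest counts, at 294 and 215 reads on glucose and 419 and 430 on galactose. This came to 11.5 and 9.96 CPM on glucose and 17.4 and 19.3 CPM on galactose. The gap between the diets, 1.52-fold from the highest glucose to the lowest galactose library, was wider than for the other 7 genes. The log2 fold change was 0.78 ± 0.30, with a 95% interval from 0.07 to 1.48. The level itself is uncertain. Of its 2451 exonic bases, 81.7% are shared with an annotated gene on the opposite strand, asRNA:CR45871, which is listed at 0 in all 4 libraries. HTSeq by default leaves out reads that lie in 2 genes. That would apply to the shared bases only if strand was ignored, and the strand setting of the counting is not stated. Divided by the 448 bases it shares with no gene, Mcm7 was at 32.4 CPM per kb over the 4 libraries, and divided by all exonic bases at 5.93 CPM per kb. Whether the overlap lowered its count was not tested.

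**Figure D1:**
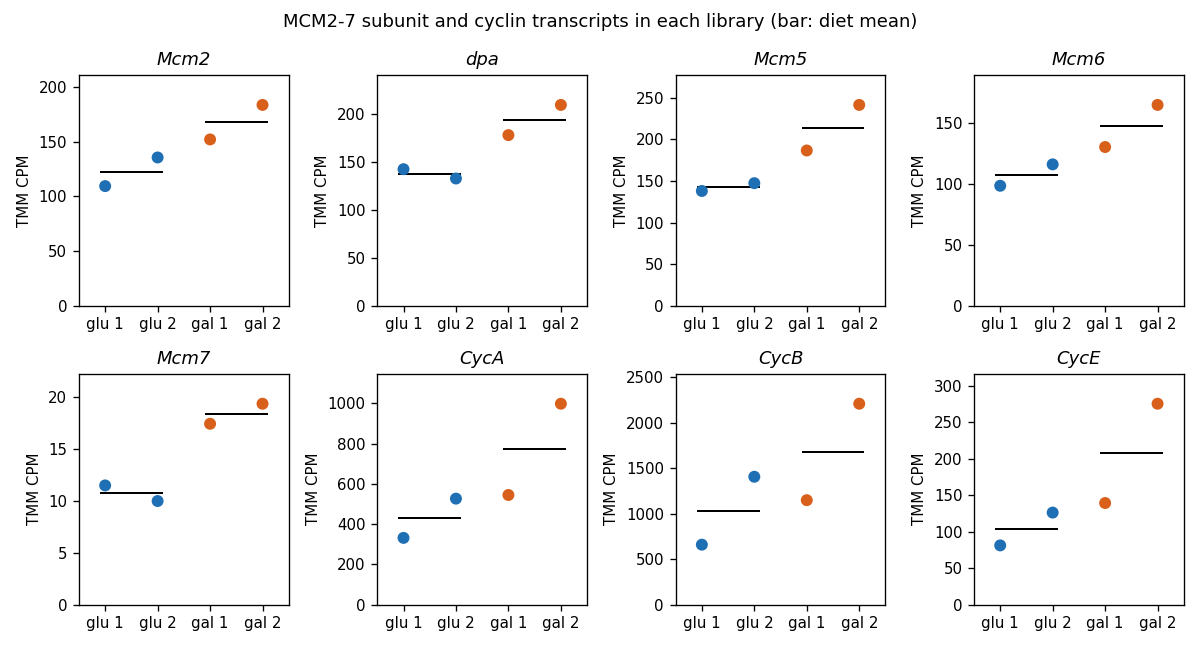
TMM-normalized CPM (vertical axes, from 0, each on its own scale) of the 8 measured genes in the 2 glucose (blue) and 2 galactose (orange) libraries; bars are the mean of each diet. The 5 MCM subunits separate by diet, whereas glucose replicate 2 lies near galactose replicate 1 for CycA and CycE and above it for CycB, at 1407 against 1149 CPM.

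The cyclins had a wider spread within each diet than the MCM subunits. Their median log2 fold change, 0.85, was above the 0.49 of the MCM subunits, but it was 0.348 against 0.377 without galactose replicate 2, and 0.551 against 0.538 without glucose replicate 1. CycE (FBgn0010382; 2L, 15727581 to 15748150) was at 81.0 and 126 CPM on glucose and at 139 and 275 CPM on galactose. The diets did not overlap, but the lower galactose library was only 1.10-fold above the higher glucose library. Its log2 fold change of 1.001 ± 0.39, 95% interval 0.07 to 1.94, was the largest of the 8 genes and was exceeded by 1.26% of all genes tested. Of its exonic bases 4.91% are shared with genes on the opposite strand.

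CycA (FBgn0000404; 3L, 11826719 to 11833578), which acts in S phase and at mitosis, was at 331 and 526 CPM on glucose and at 544.5 and 998 CPM on galactose. The middle pair of libraries, from different diets, differed by 1.03-fold. The log2 fold change was 0.85 ± 0.37, with a 95% interval from -0.04 to 1.73. CycB (FBgn0000405; 2R, 22803521 to 22806948), the mitotic cyclin whose mRNA is stored in the egg, was at 659 and 1407 CPM on glucose and at 1149 and 2211 CPM on galactose. Here the diets overlapped, with glucose replicate 2 above galactose replicate 1. The log2 fold change was 0.70 ± 0.45, with a 95% interval from -0.36 to 1.76.

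Within a diet, replicate 2 was the higher library for every cyclin. The replicate 2 to replicate 1 ratio was 1.59 for CycA, 2.14 for CycB and 1.55 for CycE on glucose, and 1.83, 1.92 and 1.98 on galactose. For the MCM subunits the same ratio was between 0.869 (Mcm7) and 1.24 (Mcm2) on glucose and between 1.11 (Mcm7) and 1.29 (Mcm5) on galactose. On the log2 scale the gap between the galactose libraries was 0.87 for CycA, 0.94 for CycB and 0.98 for CycE, where the median gap of all genes tested was 0.32. A larger gap there was seen for 7.85%, 6.20% and 5.38% of genes, and between the glucose libraries for 29.4%, 13.9% and 31.1%. The MCM gaps between the galactose libraries, at 0.15 to 0.37, were exceeded by 44.0% to 74.5% of genes.

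**Figure D2:**
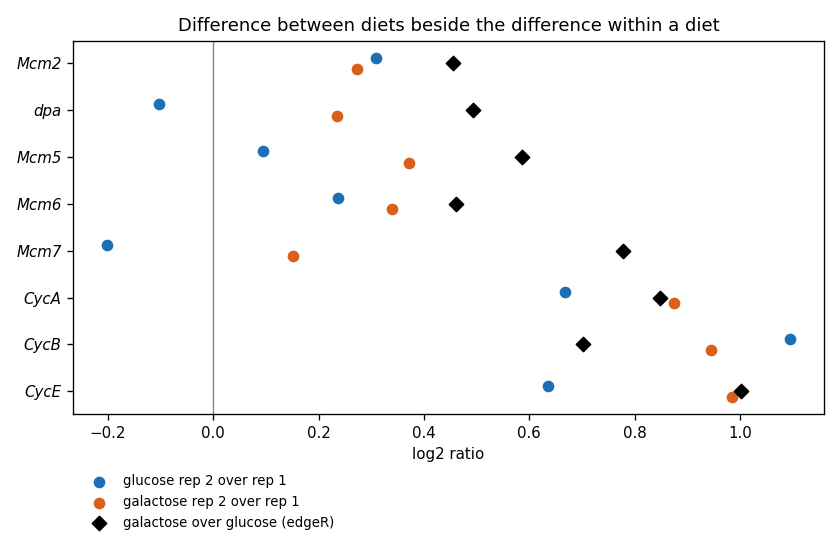
Log2 ratio (horizontal axis) of replicate 2 over replicate 1 within glucose (blue) and within galactose (orange), and of galactose over glucose from edgeR (black diamonds), for each gene. For the MCM subunits the diamonds lie to the right of both within-diet points; for CycB both within-diet points, 1.09 and 0.94, lie to the right of the diamond at 0.70.

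The ratio of cyclin to MCM transcripts was higher in replicate 2 than in replicate 1 of both diets. The summed CPM of the 3 cyclins was 2.14 and 3.80 times that of the 5 MCM subunits in glucose replicates 1 and 2, and 2.76 and 4.26 times in galactose replicates 1 and 2. The mean ratio was 2.97 ± 1.17 (SD, n = 2) on glucose and 3.51 ± 1.06 on galactose, and the diets overlapped (exact permutation test, two-sided, p = 0.667). With 2 libraries per diet that test cannot give a p below 0.333. Reads of CycB outnumbered those of CycA by 1.99 and 2.67 times on glucose and 2.11 and 2.21 times on galactose. CycA reads outnumbered CycE reads by 4.09 and 4.18 times on glucose and 3.91 and 3.63 times on galactose, so the latter ratio was lower in both galactose libraries (exact permutation test, two-sided, p = 0.333, the smallest it can give).

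Per kilobase of exonic sequence shared with no other gene, CycB was the most abundant at a mean of 445 CPM per kb over the 4 libraries. CycA followed at 206 CPM per kb, lower than CycB in 4 of 4 libraries. The MCM subunits came next, with Mcm5 at 72.8, dpa at 54.0, Mcm2 at 50.1, Mcm6 at 45.6 and Mcm7 at 32.4 CPM per kb. Mcm5 was above dpa in 4 of 4 libraries. The order of dpa and Mcm2 held in 3 of 4 libraries, so these neighbours were not separated. CycE, at 32.4 CPM per kb, was above Mcm7 in 2 of 4 libraries and below it in the other two. That tie rests on the unshared bases: over all exonic bases CycE was at 30.8 and Mcm7 at 5.93 CPM per kb, with CycE above in 4 of 4 libraries.

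By edgeR's quasi-likelihood test with Benjamini-Hochberg adjustment over all 12529 genes, 0 of the 8 genes were called, and 0% of all genes were. The adjusted p lay between 0.597 (Mcm7) and 0.665 (CycB). At an unadjusted p under 0.05 there were 2 of the 8, Mcm7 and CycE, both higher on galactose, where 3.08% of all genes were. DESeq2 also called 0 of the 8 (adjusted p from 0.37 for CycE to 0.779 for Mcm2), and it called 0.101% of genes as higher. In the authors' deposited table the adjusted p of these genes ran from 0.343 for CycE to 0.724 for Mcm2.

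The cyclin values depended on single libraries. Without galactose replicate 2 the log2 fold change was 0.35 for CycA, 0.16 for CycB and 0.43 for CycE, and without glucose replicate 1 it was 0.55 for CycA and 0.255 for CycB. Without glucose replicate 2, edgeR's quasi-likelihood test called CycB (log2 fold change 1.36, adjusted p = 0.0317) and CycE (1.36, adjusted p = 0.0474), in a comparison that rests on 1 glucose library and assumes that it varies like the galactose libraries. DESeq2 without the same library called neither (CycB 1.48, adjusted p = 0.193; CycE 1.49, adjusted p = 0.211), and over the alternatives the adjusted p ran up to 1 for both. Mcm7 kept a log2 fold change between 0.66 and 0.93 in all 16 alternatives, and Mcm6 was at 0.285 without galactose replicate 2.

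**Figure D3:**
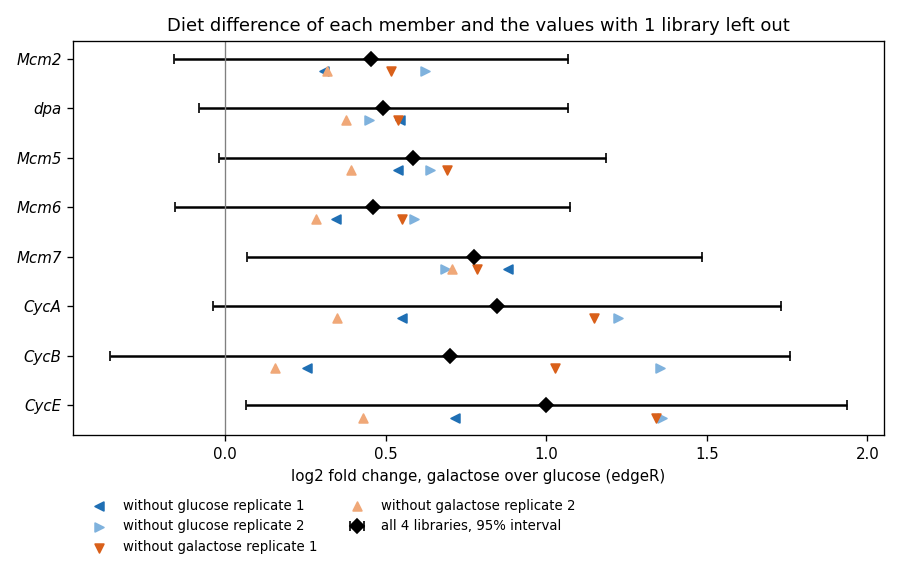
Log2 fold change, galactose over glucose, from edgeR (horizontal axis) for each gene with all 4 libraries (black diamond, bar for the 95% interval) and with each library left out (triangles). All triangles lie to the right of 0; those of CycB reach from 0.16 to 1.36 and those of Mcm7 from 0.685 to 0.88.

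Other genes of replication and the cell cycle were also mostly higher on galactose, and none was called. Of 87 genes in 8 lists, 83 were matched and 80 tested, of which 78 had a positive log2 fold change, with a median of 0.46. Both galactose libraries lay above both glucose libraries for 51 of the 80, beside the 18.8% of all genes. By list this was 17 of 19 genes for fork synthesis, 6 of 7 for origin licensing, 6 of 10 for helicase activation, 10 of 16 for cyclin partners, 4 of 8 for mitotic kinases, 4 of 9 for other cyclins and 3 of 10 for E2F and Myb-MuvB factors. The lists were chosen with earlier results of these data known, so their direction is a description.

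The 7 tested genes of origin licensing, upstream of the MCM ring, were all positive, with a median log2 fold change of 0.53. They include geminin, which inhibits Cdt1, at 0.46. Double-parked (dup), the fly Cdt1 that brings MCM subunits to origins, was at 93.1 and 143 CPM on glucose and 147.5 and 238 CPM on galactose. Its middle pair of libraries nearly coincided, much as for CycA. Orc6, a subunit of the origin recognition complex, was at 10.4 and 8.48 CPM on glucose and 13.7 and 19.2 CPM on galactose. Orc2 had a log2 fold change of 0.53 and Cdc6, the ATPase that loads the ring, of 0.67. Orc3 is listed at 0 in all libraries, and 100% of its exonic bases are shared with CG34315 on the same strand.

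The 10 factors that activate the loaded ring were all positive, with a median log2 fold change of 0.40. Chiffon (chif), the activator of the Cdc7 kinase that acts on the MCM ring, was at 66.4 and 50.1 CPM on glucose and 109 and 99.4 CPM on galactose. Its lower galactose library was 1.5-fold above its higher glucose library. Of its exonic bases 19.45% are shared with Hyls1 on the same strand. Mcm10, which helps the ring to start unwinding, had a log2 fold change of 0.79, and Cdc45, which rides with the ring at the fork, one of 0.66. RecQ4 was at 0.49. The GINS subunit genes Psf1 and Psf2 were at 0.14 and 0.10, the lowest of the list.

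At the fork, 18 of 19 tested genes of DNA synthesis were positive, with a median log2 fold change of 0.45. The large subunit of ribonucleotide reductase (RnrL), which makes the building blocks of DNA, was at 206 and 151 CPM on glucose and 268.5 and 287 CPM on galactose. The small subunit, RnrS, had a log2 fold change of 0.65. The sliding clamp PCNA was at 177 and 163 CPM on glucose and 225 and 258 CPM on galactose, and the single-strand binding protein RPA1 had a log2 fold change of 0.55. Like dpa and Mcm7, the genes RnrL, PCNA and RPA1 were lower in glucose replicate 2 than in glucose replicate 1. The exception in direction was PCNA2, at -0.40 and under 6 CPM in every library. The only tested MCM relative, rec, was at 0.56.

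Among the kinase partners and regulators of the cyclins, 15 of 16 genes were positive, with a median log2 fold change of 0.55. String (stg), the phosphatase that releases Cdk1 for mitosis, was at 90.9 and 127 CPM on glucose and 167 and 311 CPM on galactose, a log2 fold change of 1.14. Twine (twe), its counterpart in meiosis, was at 45.0 and 37.6 CPM on glucose and 57.3 and 84.1 CPM on galactose. Cdk1 itself was at 73.4 and 57.4 CPM on glucose and 95.05 and 111 CPM on galactose, so it lacked the excess in glucose replicate 2 that its cyclin partners had. Dacapo (dap), which inhibits cyclin E with Cdk2, was at 0.75 on the log2 scale.

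Of the other cyclins 9 of 9 were positive, with a median log2 fold change of 0.43. CycD, the growth-linked partner of Cdk4, was at 0.74, and CycY, CycH and CycT, the last 2 being partners of transcription kinases, were at 0.52, 0.43 and 0.55. The E2F and Myb-MuvB factors, which control replication genes, were positive in 10 of 10, with a median of 0.44. E2f1, the activator of S-phase genes, was at 108 and 81.4 CPM on glucose and 144 and 186 CPM on galactose, a log2 fold change of 0.80. E2f2 and mip120 were at 0.59 and 0.56, and Myb at 0.41. In the BDGP6.54 annotation 1 other gene on the same strand, CG46440, covers 99.2% of the exons of Myb. Myb still had 1619 to 2523 reads per library, and whether the annotation used for counting held that overlap is not known. Mitotic kinases and checkpoint genes were positive in 8 of 8, with a median of 0.49; BubR1 was at 0.61, mad2 at 0.62, polo at 0.69 and aurB at 0.47. The edgeR adjusted p of the genes named from these lists was between 0.582 and 0.925.

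**Figure D4:**
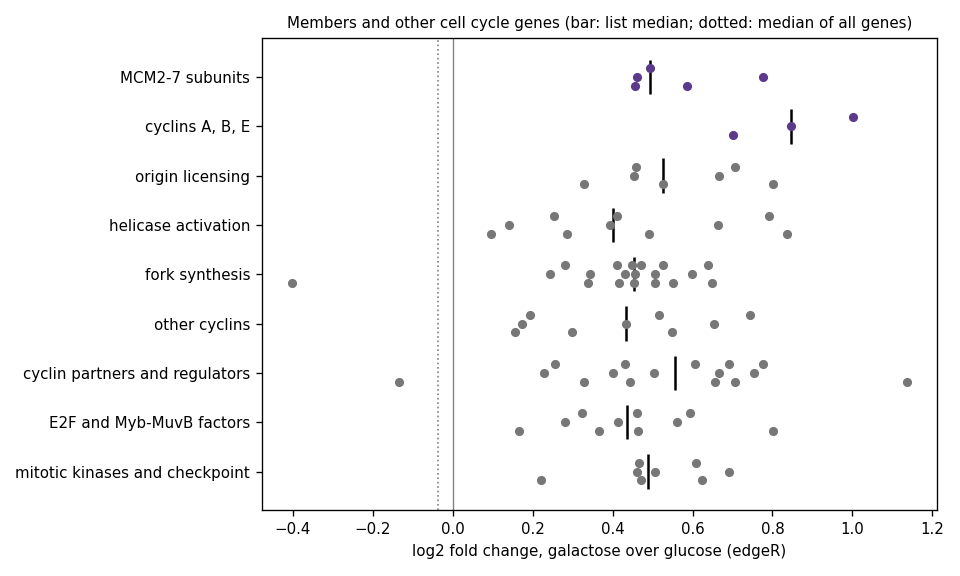
Log2 fold change, galactose over glucose, from edgeR (horizontal axis) of each tested gene in the MCM and cyclin groups (purple) and in 7 other cell cycle lists (grey); bars are list medians, the solid line is 0 and the dotted line the median of all genes tested, -0.04. Of the points shown, 2 lie below 0, and the medians run from 0.40 to 0.85.

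The summed markers of the female germline, like the summed members, were lowest in glucose replicate 1 and highest in galactose replicate 2. The summed level of 16 matched germline markers was 1932 and 2820 CPM on glucose and 2625 and 4023 CPM on galactose. Since whole flies were sequenced, any transcripts of these genes from the testis or other tissues are part of this sum. The summed level of the 8 cell cycle genes was 1571 and 2601 CPM on glucose and 2497 and 4303 CPM on galactose. The order of the other two libraries rested on single genes: without osk the germline sum was 2191 CPM in glucose replicate 2 and 2309 CPM in galactose replicate 1, and without CycB the members' sum was 1194 and 1348 CPM. The germline list was positive in 15 of 16 genes, with a median log2 fold change of 0.57 and 0 genes called by edgeR. Its part in the differences of the MCM subunits and cyclins was not tested.

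As a share of the germline sum, the MCM subunits were at 25.9% and 19.2% on glucose and 25.3% and 20.4% on galactose. The mean share was 22.5% ± 4.71 (SD, n = 2) on glucose and 22.8% ± 3.51 on galactose, so on this scale the diets overlapped. The cyclins were at 55.5% and 73.0% on glucose and 69.8% and 86.6% on galactose. Their diets overlapped as well. The oocyte gene osk, which marks the posterior of the egg, had an even wider spread than the cyclins. It was at 138 and 630 CPM on glucose and 316 and 836 CPM on galactose. Its count is uncertain, since 78.5% of its exonic bases are shared with lncRNA:osk on the same strand. Another abundant germline marker, exu, was instead highest in glucose replicate 1. It was at 589 and 397 CPM on glucose and 524 and 569 CPM on galactose, a log2 fold change of 0.15. Egg shell genes of follicle cells, summed over 12 genes, were at 20270 and 11590 CPM on glucose and 18530 and 18050 CPM on galactose. The sum was lowest in glucose replicate 2. The 3 yolk protein genes were at 15170 to 22060 CPM and were lower in both galactose libraries, as were 2931 of all 12529 genes tested.

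Testis markers were highest in glucose replicate 1, at 1660 CPM summed over 13 genes, against 669 to 840 CPM in the other 3 libraries. Of these 13 genes 1 was at 0 in all libraries. Of the 12 tested, 11 had a negative log2 fold change, with a median of -0.48 and 0 genes called by edgeR. Markers of both ovary and testis were thus present in every library. Muscle markers, summed over 7 genes, were at 4565 and 6707 CPM on glucose and 3814 and 2782 CPM on galactose, and eye markers at 3851 and 3628 CPM on glucose and 2622 and 1869 CPM on galactose. Both of these sums were lower in both galactose libraries. Gene by gene this held for 6 of 6 tested muscle genes and 4 of 5 eye genes, beside 2931 of all 12529 genes tested. The eye marker norpA went the other way, with a log2 fold change of 0.36. Of the intestinal progenitor markers Delta was at 29.2 and 24.96 CPM on glucose and 48.9 and 72.3 CPM on galactose, while klu was at 6.20 and 7.55 CPM on glucose and 6.23 and 4.76 CPM on galactose, a log2 fold change of -0.32. Sox21a was under 2 CPM in every library, with a log2 fold change of 0.02. The identifier of esg, also on this list, was not among those counted. The part of these tissues in the differences was not tested.

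**Figure D5:**
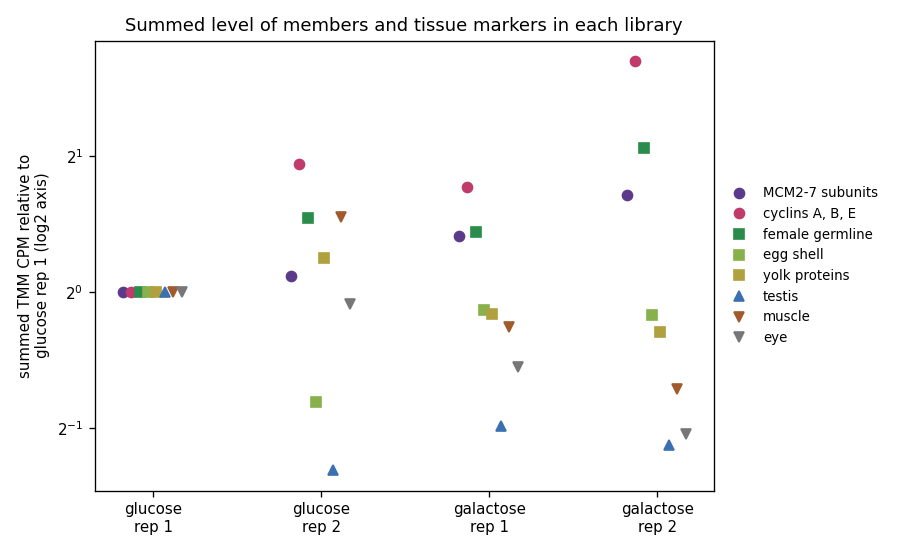
Summed TMM-normalized CPM of the MCM subunits, the cyclins and 6 marker lists in each library, relative to glucose replicate 1 (vertical log2 axis). The cyclins, the female germline and the MCM subunits are highest in galactose replicate 2, where the muscle and eye markers are lowest.

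The profile of the MCM subunits over the 4 libraries was shared by many other genes. By Euclidean distance between log2 profiles centred over the 4 libraries, the nearest of 6592 other genes with a mean of at least 20 CPM were Rab35, Prp4k, CG3430, Ote and GramD1B, at distances of 0.025 to 0.055. Rab35, the nearest, was at 70.1 and 72.0 CPM on glucose and 94.7 and 116 CPM on galactose. Of the members, Mcm5 lay nearest to the mean MCM profile, at 0.075, with 12 other genes nearer still. Each MCM subunit is itself part of that mean, which shortens its distance, whereas the cyclins and the other genes are not. CycA lay at 0.66, CycE at 0.76 and CycB at 0.88, and for CycB 4565 genes were nearer.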

How the data were processed

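Poly-A RNA of whole flies was sequenced in 4 libraries. The authors deposited raw read counts per gene; the submitters' processing notes name Bowtie2 2.2.3, TopHat2 2.0.12, HTSeq 0.6.1, DESeq2 and build BDGP6. Total counts were 21147212 to 25497099 per library; the lowest count of a member, 215, carries a counting error of 6.82%. The authors' deposited table also holds, per the file headers, a mean expression signal per diet, a log2 fold change of glucose over galactose, turned round here, and a p-value with its adjusted form. The members and lists were chosen with earlier results of these data known. Of 17628 identifiers, 17252 were named by the reference gene table; unnamed ones, with 4.73% of counts, stayed in the tests. Coordinates, exonic lengths and overlaps between genes are from the BDGP6.54 annotation, which may differ from the one used for counting.

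The main test was edgeR 4.0.16 (R 4.3.3), quasi-likelihood, TMM scaling, filterByExpr (minimum count 10, minimum total 15), diet only, Benjamini-Hochberg adjustment over 12529 genes at 0.05. The SE was the fold change divided by the square root of F. Alternatives were DESeq2 1.42.0, limma-voom 3.58.1, 3 other scalings, 2 other filters, a replicate block, and each library left out in turn; the same with DESeq2 was added after seeing the data. Profiles used log2 CPM with a prior count of 2. Tested on simulated counts of this comparison with 200 genes changed (12365 genes), edgeR called 17% of the genes changed 2-fold, 79% of those changed 4-fold and 1 unchanged gene. Named from each list were up to 4 tested genes with the smallest p, besides all members, up to 3 abundant markers, and the 5 nearest profiles. Psf1, Psf2, PCNA2, Orc3, geminin and the eye marker norpA were named after their values were seen. Promoter and protein motifs were not analysed here.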

Additional observations from a re-analysis of the deposited data

How the results depend on the processing

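edgeR's count of 0 genes called was kept with 3 other scalings, 2 other filters, limma-voom and the replicate block, and was 1033 at an unadjusted p under 0.05. DESeq2 called 88 genes with all libraries. Without single libraries edgeR called between 0 and 549 genes, and DESeq2 called 328 and 17 without glucose replicates 1 and 2 and 48 and 22 without galactose replicates 1 and 2; 2 of the 8 members, CycB and CycE, were among the 147 edgeR calls without glucose replicate 2. The cause was not tested. With edgeR and a library left out, the median log2 fold change of the 8 members was between 0.363 (without galactose replicate 2) and 0.738. It was between 0.529 and 0.761 in the alternatives with all 4 libraries. Over these alternatives together it was 0.374 to 0.623 for the MCM subunits and 0.348 to 1.356 for the cyclins. No list median was taken for DESeq2 with a library left out, where Mcm7 reached 0.927 and CycE 1.487. All 8 members stayed positive in all 16 alternatives. Upper-quartile scaling moved the median of all genes from -0.04 to -0.15, and the members' median fell with it, to 0.529. The replicate number was shared by the diets but no label says that it pairs libraries; same-numbered libraries' deviations correlated at 0.225 over genes. With the replicate block the members' median was 0.650 and the adjusted p for CycE 0.303, with 0 genes called. In counts simulated at this depth, edgeR called 17% of genes changed 2-fold. Each simulated gene had the spread typical of its level, with no difference shared between libraries. The cyclins varied more than the median gene between the galactose libraries, so this share may not apply to them.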
